A study of Saccharomyces cerevisiae with 9 samples.

Results

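The 75 genes described here, called members below, encode proteins of the cytosolic ribosome of baker's yeast, Saccharomyces cerevisiae. They were taken by symbol: RPL or RPS, a number and, where present, the paralogue letter A or B, on a probe set that the platform annotation assigns to 1 gene. Of these, 42 are RPL genes for the large (60S) subunit and 33 are RPS genes for the small (40S) subunit. They are 75 of the 5656 genes with a single-gene probe set, and all 75 were among the 4537 genes bright enough to be tested. The RefSeq annotation lists 132 symbols of this form. Another 54 of them are read only by probe sets shared between an A and a B copy, and 3 were not analysed here.

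The study measured mRNA on Affymetrix Yeast Genome S98 arrays in a strain deleted for both CTH1 and CTH2. These genes encode zinc-finger proteins that recognise AU-rich sequences in target mRNAs and speed their decay when iron is scarce. The CTH2 group carried the plasmid pRS416-CTH2, the CTH1 group pRS416-CTH1 and the vector group pRS416 with no insert, with 3 arrays in each. All cultures grew at 30 °C in SC-Ura, a synthetic medium lacking uracil, for about 6 h with 100 µM bathophenanthroline disulfonate (BPS), an iron chelator. The restored gene was therefore plasmid-borne in every case, no iron-replete sample enters any comparison, and the labels do not say whether each culture was a separate transformant. The p-values measure the spread between these cultures.

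Each ribosome is built from ribosomal RNA and nearly equal amounts of each ribosomal protein, so yeast transcribes the ribosomal protein genes together, as one of the largest coordinated groups in the genome. Their transcription depends on factors such as Rap1, Fhl1, Ifh1 and Sfp1 and responds to nutrients through the TOR pathway. Many exist as A and B copies left from an ancient duplication of the whole genome, and many of them carry an intron, which most yeast genes lack. Iron enters this system through Rli1, an iron-sulfur protein that splits the subunits apart after translation ends.

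Each plasmid-borne gene was detected on the arrays of the group that carried it, CTH1 much dimmer than CTH2, and was near background elsewhere. CTH2, listed in the annotation as TIS11, had a signal of 3800, 3390 and 4500 on the CTH2 arrays, 6.79, 10.2 and 1.81 on the CTH1 arrays and 0.878, 5.9 and 5.56 on the vector arrays. CTH1 had 1.54, 3.2 and 14.3 on the CTH2 arrays, 231, 592 and 288 on the CTH1 arrays and 0.583, 0.854 and 1.21 on the vector arrays. The median signal over all probe sets was 153 to 184 on the 9 arrays. Of 10 ribosomal RNA control probe sets, 3 had all CTH2 arrays below all vector arrays and 0 had all CTH1 arrays below all vector arrays. The CTH1 mean was above the vector mean for 9 of the 10, with 0 sets where all CTH1 arrays lay above all vector arrays, and the CTH2 mean was above it for 2. A set for the small-subunit rRNA read 239, 287 and 286 on the CTH2 arrays, 2160, 460 and 1910 on the CTH1 arrays and 454, 723 and 993 on the vector arrays. The part of these ribosomal RNA values in the results below was not tested.

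The ribosomal protein genes lay at the bright end of the arrays. By mean log2 signal, 70 of the 75 were among the top 10% of the tested genes and 63 among the top 5%. Their median signal was 8317, 7336 and 7993 on the CTH2 arrays, 7426, 7468 and 6703 on the CTH1 arrays and 7954, 7311 and 8639 on the vector arrays. The array medians of all groups overlapped. These are signals of pooled RNA from whole cultures, so fewer cells with an mRNA and less of it per cell cannot be told apart.

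No ribosomal protein gene passed the test in any comparison. With limma and Benjamini-Hochberg adjustment over all 4537 genes at an adjusted p under 0.05, 0 of 75 were called between CTH2 and vector, where 0.287% of all tested genes were called. Between CTH1 and vector 0 of 75 were called, against 0.0% of all tested genes. Between CTH2 and CTH1 0 of 75 were called, against 0.022% of all tested genes. The smallest adjusted p among them was 0.53 for CTH2 against vector (RPL17A), 0.61 for CTH1 against vector (RPL39) and 0.4 for CTH2 against CTH1 (RPS29A). The standard error (SE) of a difference on the log2 scale ran from 0.18 to 0.51 with a median of 0.23, and the median SE of the other genes was 0.25.

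With CTH2, most ribosomal protein genes had slightly lower signals than with the empty plasmid. The median log2 difference of the 75 was -0.14, beside a standard deviation (SD) between replicate arrays of 0.16, and that of all tested genes was 0.07. Values were below 0 for 55 of 75, against 40.9% of all tested genes. At an unadjusted limma p under 0.05, 1 of 75 was lower, RPL17A, where 4.3% of all tested genes were, and 0 were higher, where 5.05% were. All 3 CTH2 arrays lay below all 3 vector arrays for 4 genes, RPL32, RPL36B, RPS0B and RPS14A, against 6.99% of all tested genes. They lay above them for 0 of 75, against 9.48% of all tested genes.

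With CTH1, the median log2 difference from vector was -0.19, beside an SD between replicate arrays of 0.15, and that of all tested genes was 0.06. Values were below 0 for 60 of 75, against 41.4% of all tested genes. At an unadjusted limma p under 0.05, 10 of 75 were lower, where 3.04% of all tested genes were, and 1, RPS20, was higher, where 3.86% were. The 10 were RPL29, RPL32, RPL33B, RPL37B, RPL39, RPS14A, RPS27A, RPS28A, RPS29A and RPS29B. All 3 CTH1 arrays lay below all 3 vector arrays for 9 of 75, against 3.35% of all tested genes, and above them for 0 of 75, against 6.9%. Without CTH1 replicate 3 the median was -0.10, and that of all tested genes was 0.05. In that fit 7 of 75 members in all, RPS20 among them, reached an unadjusted limma p under 0.05. The share of all tested genes that did so in that fit is not given here, so this count cannot be set against it.

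Set directly against each other, CTH2 and CTH1 cultures differed by a median of 0.10 over the 75 genes, and all tested genes by 0.01. Values were below 0 for 26 of 75, against 48.5% of all tested genes. At an unadjusted limma p under 0.05, 5 of 75 were higher with CTH2, where 3.92% of all tested genes were, and 0 were lower, where 3.55% were. These 5 were RPL37B, RPL38, RPL39, RPS29A and RPS29B. All of them but RPL39 had every CTH2 array above every CTH1 array, which makes 4 of 75, against 6.26% of all tested genes. The CTH2 arrays lay wholly below the CTH1 arrays for 0 of 75, against 7.19% of all tested genes. The direction of the median did not hold without CTH1 replicate 3 (-0.04) or with arrays weighted by their quality (-0.06).

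**Figure D1:**
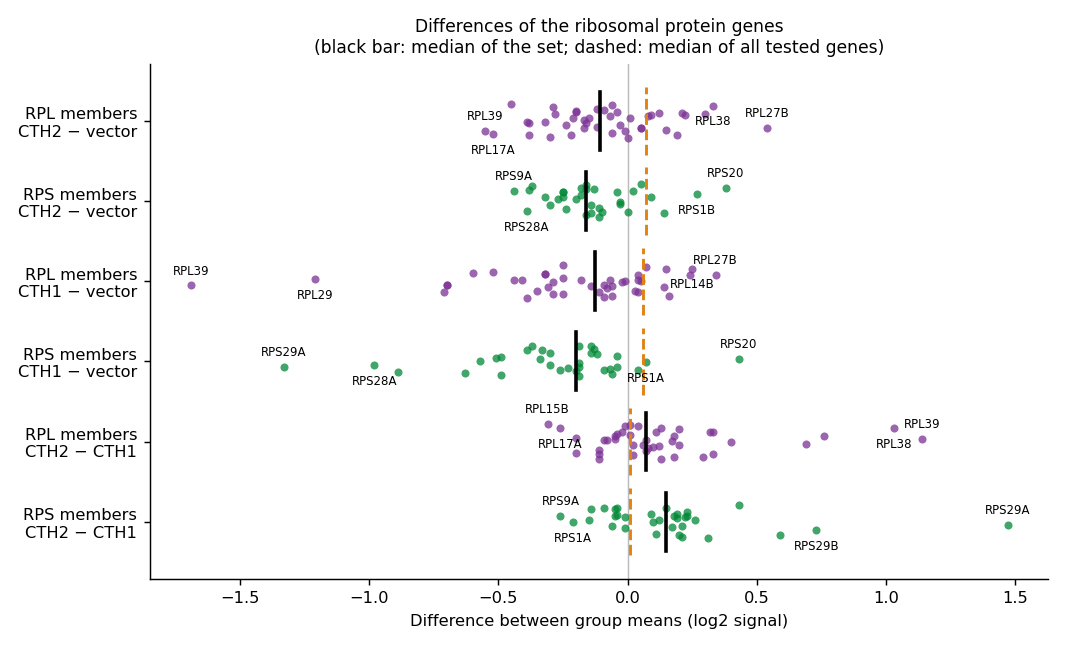
The horizontal axis is the difference between group means in log2 signal, and each point is 1 gene, with 42 RPL and 33 RPS genes for each of CTH2 minus vector, CTH1 minus vector and CTH2 minus CTH1. Most points of the comparisons against vector lie left of the dashed median of all tested genes, and RPL39 (-1.69), RPS29A (-1.33) and RPL29 (-1.21) lie apart from the rest with CTH1.

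The shift was not shared by all cultures of a group. Relative to each gene's vector mean, the median over the 75 genes was -0.11, -0.31 and 0.08 on the CTH2 arrays. On the CTH1 arrays it was -0.05, -0.16 and -0.40. On the vector arrays it was -0.05, -0.09 and 0.13. The lowest values were thus those of CTH2 replicate 2 and CTH1 replicate 3, and the highest that of vector replicate 3. The CTH2 arrays and the CTH1 arrays each overlapped the vector arrays. Without CTH2 replicate 2 the CTH2 median difference was -0.05 on the log2 scale, and without vector replicate 3 it was also -0.05. The CTH1 median difference was -0.10 without CTH1 replicate 3 and -0.14 without vector replicate 3.

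The size of the shift also depended on how arrays were scaled. After quantile normalization, which forces the same distribution of signals on every array, the median difference of the 75 genes was 0.00 with CTH2, where 37 of 75 were below 0, and -0.10 with CTH1, where 49 of 75 were. After scaling to a common median it was -0.26 with CTH2, where all tested genes had -0.06, and -0.25 with CTH1, where all tested genes had -0.00. The 95th percentile of the signal of all tested genes was 3702 on CTH2 replicate 2 and 3779 on CTH1 replicate 3, the lowest of the 9 arrays, and it reached 4175 on CTH2 replicate 3. On CTH2 replicate 2 and CTH1 replicate 3 the median deviation of the 75 genes was -0.31 and -0.40. The 95th percentile was 4092 on CTH1 replicate 2, where the median deviation was -0.16, and 4006 on vector replicate 3, where it was 0.13. On every array that percentile lay below the median signal of the 75 genes, so it does not describe the signals at which most of them lie. The part of the bright end of the scale in the shift was not tested beyond these alternatives.

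**Figure D2:**
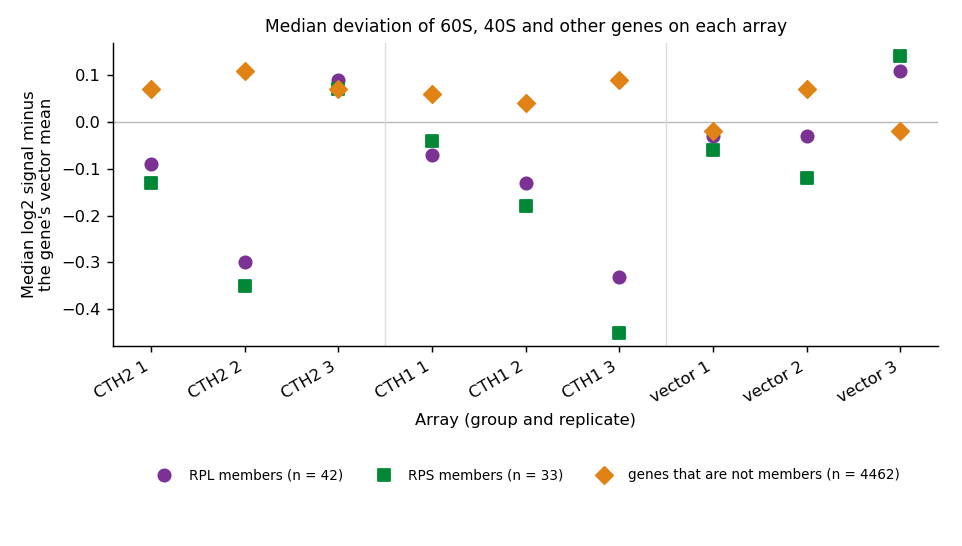
The vertical axis is the median over genes of log2 signal minus the gene's vector mean, shown for each of the 9 arrays in the order CTH2, CTH1, vector, with circles for 42 RPL genes, squares for 33 RPS genes and diamonds for the 4462 tested genes outside the family. RPL and RPS medians lie close together on every array, and both are lowest on CTH2 replicate 2 and CTH1 replicate 3.

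Genes of the large and the small subunit had median differences of the same sign in each comparison. With CTH2 the median log2 difference from vector was -0.10 for the 42 RPL genes and -0.16 for the 33 RPS genes, with 29 and 26 of them below 0. With CTH1 it was -0.13 for the RPL genes and -0.20 for the RPS genes, with 30 in each set below 0. For CTH2 against CTH1 the medians were 0.07 and 0.15. The gap between RPL and RPS medians was 0.05, 0.07 and -0.08 in these comparisons, beside an SD between replicate arrays of 0.04, 0.07 and 0.06. On the CTH1 arrays the spread of differences among RPL genes (SD over genes 0.38) and RPS genes (0.33) was wider than on the CTH2 arrays (0.24 and 0.18).

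Among the large-subunit genes, RPL39 had the lowest difference in both comparisons against vector. It encodes one of the smallest ribosomal proteins, which lines the tunnel through which the new peptide leaves. Its signal was 1735, 1398 and 2802 on the CTH2 arrays, 1142, 1531 and 364 on the CTH1 arrays and 2008, 2690 and 3979 on the vector arrays. All CTH1 arrays were below all vector arrays, and CTH1 replicate 3 was far below the other arrays. The log2 difference was -1.69 for CTH1 against vector (SE 0.46, limma adjusted p = 0.61) and -0.55 for CTH2 against vector (SE 0.46, adjusted p = 0.77). Without CTH1 replicate 3 the CTH1 difference was -1.07.

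RPL29, another very small large-subunit protein, was even more dependent on that array. Its signal was 2996, 3545 and 7848 on the CTH2 arrays, 3500, 5194 and 940 on the CTH1 arrays and 6201, 5838 and 5825 on the vector arrays. The vector arrays were tightly grouped, all CTH1 arrays were lower, and the CTH2 arrays lay on both sides. The log2 difference was -1.21 for CTH1 (SE 0.51, limma adjusted p = 0.71), -0.48 without CTH1 replicate 3, and -0.45 for CTH2 (SE 0.51).

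RPL38 and RPL37B were among the 4 of 75 members with every CTH2 array above every CTH1 array, against 6.26% of all tested genes. RPL38, whose protein sits at the surface of the 60S subunit, had signals of 9222, 7417 and 10127 with CTH2, 2777, 4650 and 6300 with CTH1 and 4312, 8529 and 9498 with vector. Here CTH1 replicate 1 was the lowest array and CTH1 replicate 3 the highest of its group, unlike for RPL39. The log2 difference between CTH2 and CTH1 was 1.03 (SE 0.33, limma adjusted p = 0.45), and it was 1.30 without CTH1 replicate 3.

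RPL37B encodes a zinc-binding protein of the large subunit. Its signals were 11891, 8879 and 9673 with CTH2, 7386, 5502 and 5983 with CTH1 and 6900, 10923 and 11137 with vector. All CTH2 arrays lay above all CTH1 arrays, while vector replicate 1 lay among the CTH1 values. The log2 difference was 0.69 between CTH2 and CTH1 (SE 0.23, limma adjusted p = 0.45) and -0.60 between CTH1 and vector (SE 0.23, adjusted p = 0.66).

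RPL32 lay below vector in both groups. Its signals were 8548, 8605 and 9101 with CTH2, 9402, 6961 and 7919 with CTH1 and 10145, 10824 and 11789 with vector, so both groups lay wholly below the vector arrays. The log2 differences were -0.32 with CTH2 (SE 0.18, limma adjusted p = 0.61) and -0.44 with CTH1 (SE 0.18, adjusted p = 0.68). Both comparisons use the same vector arrays. With CTH2 such a separation below vector held for 4 of 75 members, against 6.99% of all tested genes. With CTH1 it held for 9 of 75, against 3.35%. RPL33A and RPL33B, copies of a further large-subunit gene, differed from vector by -0.20 and -0.30 with CTH2 and by -0.52 and -0.70 with CTH1. Without CTH1 replicate 3 the CTH1 values were -0.14 and -0.40.

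With CTH2, RPL17A had the second lowest value of the large subunit after RPL39, and RPL27B the highest. RPL17A, which encodes a protein at the peptide exit tunnel, had 12611, 9654 and 7910 on the CTH2 arrays, 15738, 10669 and 9916 on the CTH1 arrays and 12577, 13051 and 17218 on the vector arrays. CTH2 replicate 1 overlapped the vector arrays, and the log2 difference was -0.52 (SE 0.24, limma adjusted p = 0.53). RPL27B had 5593, 5424 and 4951 on the CTH2 arrays, 4235, 4970 and 4731 on the CTH1 arrays and 5702, 3964 and 2156 on the vector arrays. Its log2 difference of 0.54 with CTH2 (SE 0.29, limma adjusted p = 0.6) went with 1 low vector array, replicate 3, without which it was 0.16, while it was 0.86 without vector replicate 1. With CTH1 it was 0.34 (SE 0.29), and -0.04 without vector replicate 3.

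Further large-subunit genes, chosen for their roles after their values were seen, gave values of both signs. RPL3, whose protein reaches the peptidyl transferase centre, differed from vector by 0.05 with CTH2 and 0.04 with CTH1 on the log2 scale. RPL5, which binds 5S ribosomal RNA, differed by 0.08 and 0.07. RPL10, which joins the subunit late in its maturation, differed by -0.22 and -0.14, and RPL25, at the tunnel exit, by -0.07 and -0.25. The SE of these genes ran from 0.18 to 0.30. RPL30, whose protein represses splicing of its own transcript, differed by -0.12 and -0.01 (SE 0.21).

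Among the small-subunit genes, RPS29A and RPS29B had the lowest and the third lowest difference with CTH1. They encode near-identical zinc-binding proteins of the head of the 40S subunit. RPS29A had signals of 5184, 4326 and 10128 with CTH2, 1853, 2598 and 2237 with CTH1 and 2718, 8283 and 7618 with vector. RPS29B had signals of 4281, 4156 and 2743 with CTH2, 2395, 2149 and 2067 with CTH1 and 4148, 3089 and 5335 with vector. For both genes all CTH1 arrays lay below all arrays of the other groups.

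For RPS29A the log2 difference was -1.33 for CTH1 against vector (SE 0.40, limma adjusted p = 0.61) and 1.47 for CTH2 against CTH1 (SE 0.40, adjusted p = 0.4). For RPS29B it was -0.89 (SE 0.24, limma adjusted p = 0.61) and 0.73 (SE 0.24, adjusted p = 0.45). CTH2 against vector gave 0.14 for RPS29A and -0.16 for RPS29B, within 1 SE of 0, and each of these signs turned when single arrays were left out. Unlike RPL39 and RPL29, neither gene depended on CTH1 replicate 3, without which the CTH1 differences were -1.34 and -0.85. Vector replicate 1 was low for RPS29A, whose CTH1 difference was -1.85 without it. Both genes are read by probe sets with a suffix that marks sequence shared within a family, so the copies are not measured apart from each other with certainty.

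**Figure D3:**
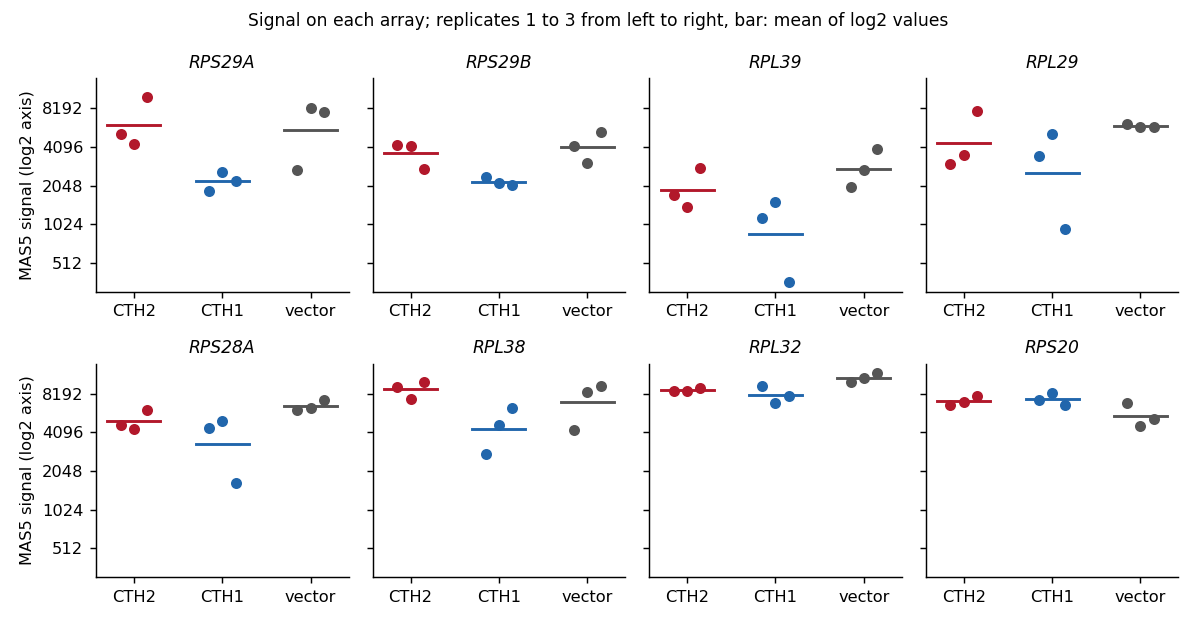
The vertical axis is the MAS5 signal on a log2 axis, with 1 point for each array and a bar at the mean of the log2 values for CTH2, CTH1 and vector cultures. RPS29A and RPS29B are low on all CTH1 arrays, RPL39, RPL29 and RPS28A are lowest on CTH1 replicate 3, and RPL32 is highest on the vector arrays.

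RPS28A and RPS20 marked the other extremes of the small subunit. RPS28A, which encodes a protein near the mRNA exit, had 4669, 4387 and 6145 with CTH2, 4411, 5027 and 1657 with CTH1 and 6094, 6392 and 7277 with vector. All CTH1 arrays were below the vector arrays, with CTH1 replicate 3 far lower than the others. The log2 difference with CTH1 was -0.98 (SE 0.34, limma adjusted p = 0.66) and was -0.48 without that replicate. A dimmer probe set of RPS28A gave -0.66 with CTH1 and 0.13 with CTH2, where the brighter set used here gave -0.39.

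RPS20 encodes a protein of the 40S head. Its signals were 6636, 7109 and 7937 with CTH2, 7346, 8375 and 6703 with CTH1 and 6978, 4624 and 5219 with vector. It was the highest member with CTH1 (0.43, SE 0.20, limma adjusted p = 0.71) and the second highest with CTH2 (0.38, SE 0.20, adjusted p = 0.59). Vector replicate 1 lay among the values of the other groups in both cases.

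RPS14A, for a protein of the 40S platform, had 4251, 4570 and 4616 with CTH2, 4565, 3488 and 3526 with CTH1 and 4800, 5111 and 5137 with vector. The vector arrays were above all others, by log2 differences as small as -0.16 with CTH2 (SE 0.18) and -0.39 with CTH1 (SE 0.18, limma adjusted p = 0.71). RPS9A, for a protein that helps to hold the mRNA entry channel, was the lowest small-subunit gene with CTH2 (-0.44, SE 0.27). RPS3, at the same channel, differed from vector by -0.25 with CTH2 and -0.19 with CTH1 (SE 0.23), and RPS31, made as a fusion with ubiquitin, by 0.09 and -0.09 (SE 0.19).

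Both copies were measured for 29 A and B pairs. The A minus B gap in log2 difference had a median of 0.03 for CTH2 against vector, 0.02 for CTH1 against vector and -0.01 for CTH2 against CTH1. It was above 0 in 16, 17 and 12 of the 29 pairs, with values of both signs in every comparison. The median size of the gap was 0.21, 0.11 and 0.14. It exceeded 0.5 on the log2 scale in 0, 2 and 4 pairs. Across pairs, which share arrays and often sequence, the A and B differences had a Pearson correlation of 0.66 for CTH1 against vector and 0.32 for CTH2 against vector, given as a description only. Of the 58 paired genes, 30 are read by probe sets with a suffix for shared sequence, so the values of their copies are not fully separate measurements.

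RPS28 was the pair with the widest gap with CTH1. RPS28A differed from vector by -0.98 and RPS28B by -0.04, a gap of -0.94, or -0.46 without CTH1 replicate 3. RPS28B is the copy whose mRNA is known to be destabilised by its own protein product with the decapping factor Edc3. Relative to its vector mean, the A minus B gap was -0.77, -0.14 and -1.91 on the CTH1 arrays and -0.13, 0.01 and 0.12 on the vector arrays. The CTH1 arrays all lay below the vector arrays, with most of the gap on CTH1 replicate 3. On the CTH2 arrays the gap was -0.31, -0.12 and -0.36, which overlapped the vector values.

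The RPL14 and RPS29 pairs followed with CTH1. RPL14A and RPL14B differed from vector by -0.35 and 0.25, a gap of -0.59 that was -0.24, -0.75 and -0.79 on the CTH1 arrays and -0.81, 0.38 and 0.43 on the vector arrays, which overlapped. RPS29 had a gap of -0.44, with an SD of 0.34 over the CTH1 arrays and 1.02 over the vector arrays. With CTH2 the widest gaps from vector were -0.49 for RPL17, -0.48 for RPL37 and -0.41 for RPS1. The RPL17 gap depended on the probe set. Dimmer sets of RPL17B gave -0.28 and 0.00 with CTH2, where the set used here gave -0.03. A dimmer set of RPL17A gave -0.58, where the set used here gave -0.52. For RPL17 and RPS1 the gap on all CTH2 arrays lay below that on all vector arrays, which makes 2 of the 29 pairs. It lay wholly above for 0 pairs. For single genes the share wholly below was 6.99% of all tested genes, and no share is given here for gaps of other gene pairs. With CTH1 the gap lay wholly below vector for 1 pair, RPS28, and wholly above for 1, RPS21. In CTH2 against CTH1 the widest gaps were 0.73 for RPS29, 0.68 for RPS28 and -0.56 for RPL17, each with overlapping arrays. There the gap on the CTH2 arrays lay wholly above that on the CTH1 arrays for 1 pair, RPL15 (0.43), and wholly below for 1, RPS1 (-0.51).

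**Figure D4:**
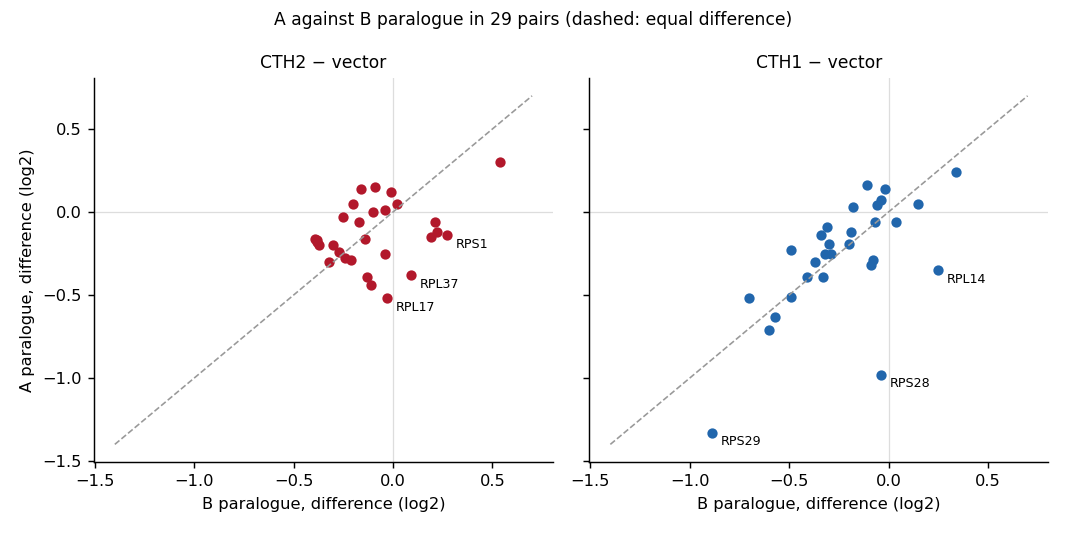
The axes are the log2 difference from vector of the B copy (horizontal) and of the A copy (vertical) in 29 pairs, with CTH2 on the left and CTH1 on the right. The median size of the gap between copies is 0.21 with CTH2 and 0.11 with CTH1. With CTH2 the SD over genes is 0.19 for the A copies and 0.22 for the B copies, so the gaps are about as large as that spread. With CTH1, RPS28 (gap -0.94) lies below the dashed line of equal difference and RPS29 lies low for both copies.

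On CTH1 replicate 3, genes of short span had lower signals than longer ones. The annotated span of a gene counts its introns and leaves out untranslated regions, and 13 members span at most 400 nucleotides. On CTH1 replicate 3 their median log2 deviation from the vector mean was -0.71, and that of the 62 longer members was -0.35. Tested genes outside the family behaved in the same direction on that array, with -0.60 for 393 genes of at most 400 nucleotides and 0.13 for 4069 longer ones. For members the short minus long gap was -0.36 there, while the remaining arrays gave -0.11 to 0.13. Genes outside the family had a gap of -0.72 there and of -0.13 to 0.18 elsewhere.

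On the deposited scale the longer members were thus also lower on CTH1 replicate 3, while longer genes outside the family were not. After quantile normalization the medians on that array were -0.05 for the 62 longer members and 0.06 for longer genes outside the family. Over the group, the median CTH1 difference from vector was -0.44 for the 13 short members and -0.16 for the 62 longer ones, and -0.16 and 0.08 for short and longer genes outside the family. With CTH2 the medians were -0.13 and -0.14 for members. RPL39 has an annotated span of 542 nucleotides that includes an intron, so it is not among the 13, and its deviation on CTH1 replicate 3 was -2.93. RPL29, with a span of 180 nucleotides, deviated by -2.66 there and RPS28A, with 204, by -1.99. Other short members moved little or went up on that array. RPS28B, also with 204 nucleotides, deviated by -0.08, RPL38, with 237, by -0.16 and RPS20, with 366, by 0.28. Of the 13 short members, 12 were below 0 there. RPS29A and RPS29B, the shortest members at 171, deviated by -1.31 and -0.98 on that array and by -1.58 and -0.77 on CTH1 replicate 1. After correcting for span, the medians on CTH1 replicate 3 were -0.16 for the short members and -0.30 for the longer ones. The median CTH1 difference of the 75 genes was then -0.19, with 54 of 75 below 0. The part of that array's span dependence in the CTH1 values was not tested beyond leaving the array out and correcting for span.

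**Figure D5:**
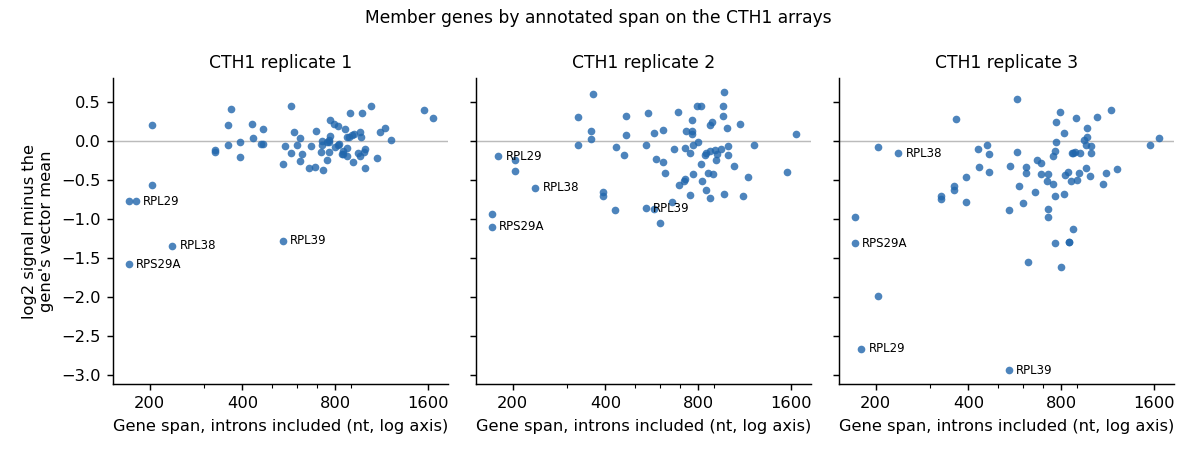
The horizontal axis is the annotated gene span in nucleotides (log axis, introns included) and the vertical axis the log2 signal minus the gene's vector mean for the 75 genes on each CTH1 array. On CTH1 replicate 3 genes of at most 400 nucleotides have a lower median than longer ones, with RPL29 (180 nucleotides) at -2.66. The lowest point there is RPL39 at -2.93, which has a span of 542 nucleotides. RPS29A is low on all 3 arrays.

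Families read only by probe sets shared between A and B copies gave a similar picture. Over 27 such families the median log2 difference was -0.13 with CTH2 and -0.17 with CTH1 against vector and 0.02 for CTH2 against CTH1, with 23, 20 and 10 of them below 0. RPL41A and RPL41B, which encode the smallest ribosomal protein, had the lowest value with CTH1, -1.21 without a floor on the signal. With the floor of 43.17 used for the members it was -1.16. Their common probe set was dim, with signals of 151, 179 and 402 on the CTH2 arrays, 125, 281 and 40 on the CTH1 arrays and 326, 228 and 229 on the vector arrays. CTH1 replicate 2 overlapped the vector arrays. CTH1 replicate 3 was again the lowest and lay under that floor, and without this array the difference was -0.46. Both probe sets of RPS30A and RPS30B, whose mammalian counterpart is made as a fusion with a ubiquitin-like protein, had -0.58 and -0.81 with CTH1, and -0.23 and -0.46 without CTH1 replicate 3. The lowest family with CTH2 was RPL43 (-0.43) and the highest RPS19 (0.25).

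Genes that work with the ribosomal proteins were read from 7 lists, and 0 of their tested members were called by limma in any comparison. The P stalk proteins, which recruit elongation factors, had 5 tested members with a median of -0.09 with CTH2 and -0.09 with CTH1. RPP1B differed by -0.35 in each and RPP2B by -0.20 and -0.09. Factors bound to the 40S subunit or the nascent chain (7 tested) had medians of -0.00 and -0.01, with STM1, which clamps idle ribosomes, at -0.44 and -0.26. Elongation factors (6 tested) had medians of -0.03 and -0.02. With CTH2, TEF4 had 0.34 and CAM1 -0.34. EFB1, the exchange factor of eEF1A, had 0.02 with CTH2 and -0.31 with CTH1. Initiation factors (19 tested) had medians of -0.01 and -0.01. Of these lists, 0 members reached an unadjusted p under 0.05 in any comparison.

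In the list of termination and recycling factors (6 tested, medians 0.07 with CTH2 and 0.04 with CTH1), RLI1 had the lowest value. Its signal was 603, 690 and 847 with CTH2, 1041, 1544 and 950 with CTH1 and 1360, 1756 and 1391 with vector. The CTH2 arrays lay below all other arrays, and CTH1 replicate 2 overlapped the vector arrays. The log2 difference was -1.08 for CTH2 against vector (SE 0.23, limma adjusted p = 0.091), -0.71 for CTH2 against CTH1 (SE 0.23, adjusted p = 0.45) and -0.37 for CTH1 against vector (SE 0.23, adjusted p = 0.8). TMA64, an initiation-factor-like protein that removes tRNA from 40S subunits after termination, had values of 1.00 with CTH2 (SE 0.29, adjusted p = 0.19) and 0.74 with CTH1 (SE 0.29, adjusted p = 0.68), with signals of 323, 300 and 258 with CTH2, 213, 301 and 226 with CTH1 and 202, 165 and 92 with vector.

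The transcription factors and regulators of the family (12 tested) had medians of 0.08 with CTH2 and 0.11 with CTH1. HMO1, a high-mobility-group protein bound at many ribosomal protein promoters, had 0.58 with CTH2 (SE 0.34), TOD6, a repressor of ribosome biogenesis genes, -0.47 (SE 0.33), and SFP1 0.39 with CTH1 (SE 0.27). The dedicated chaperones and importers (12 tested) had medians of -0.06 and 0.00, with RRB1, the chaperone of Rpl3, at -0.40 with CTH1 (SE 0.27) and BCP1, the chaperone of Rpl23, at 0.36 with CTH2 (SE 0.23). In CTH2 against CTH1 the medians of the 7 lists, in the order given here, were -0.01, -0.12, -0.00, -0.01, 0.01, -0.02 and 0.07.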

How the data were processed

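The authors deposited MAS5 intensity values on a linear scale, 1 for each probe set and array, per the submitters' processing notes, which give no MAS5 version. The mean without the lowest and highest 2% was 500.4 to 500.6 on every array, so each had been scaled to 1 target. Groups came from the sample titles. Of 9335 probe sets, 6504 name 1 gene, giving 5656 genes after keeping the probe set with the highest mean, as 20 members needed.

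Values under 43.17, the 10th percentile, were set to it (0% of member values), and log2 was taken. The 4537 genes whose mean exceeded 98.4, the 25th percentile, were fitted with limma 3.58.1 in R 4.3.3 (lmFit, eBayes with trend, all 9 arrays, Benjamini-Hochberg adjustment per comparison), after tests on simulated data. The number of arrays limits the precision. Spans and names came from the RefSeq table. Genes to name were the 6 highest and 6 lowest members and 3 widest pairs of each comparison, RPS29A, RPS29B, and 2 genes per list. Not all of them are described above. RPL15B, the lowest member for CTH2 against CTH1 (-0.31), is among those left out, as are RPL21A, RPL21B and RPS1A of the same comparison. Other members were named after their values were seen. Members and lists were chosen with earlier results of these data known. Same-numbered arrays did not deviate together (correlations -0.578 to 0.212), so the numbers were not used as pairs.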

Additional observations from a re-analysis of the deposited data

How the results depend on the processing

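Over 20 alternatives for each comparison (normalization, floor, filter, probe-set choice, replicate block, arrays fitted, array weights, span correction and each array left out), the count of ribosomal protein genes called by limma was 0. With the replicate block it was 0 as well, while calls over all genes between CTH2 and vector were 1, against 13 without it, and they ran up to 72 with array weights. The span correction together with the replicate block was added after seeing the data. The median A minus B gap for CTH2 against vector (0.03) was 0.11 without shared-sequence probe sets, -0.06 with array weights and -0.09 to 0.06 with single arrays left out. The RPL minus RPS gap for CTH1 against vector (0.07) was -0.01 to 0.07 with single arrays left out. That for CTH2 against CTH1 (-0.08) was 0.01 with array weights, -0.01 with the span correction, with or without the replicate block, and -0.09 to 0.05 with single arrays left out. Signs of named genes turned in 11 cases. For CTH2 against vector, RPS29A (0.14) was -0.14 with array weights and, with single arrays left out, -0.38 to 0.42, with -0.23 without CTH2 replicate 3. On the same terms RPL38 (0.33) ran from -0.02 to 0.54, RPL9B (0.22) from -0.01 to 0.48 and RPS29B (-0.16) from -0.36 to 0.04, with 0.03 without vector replicate 3. For CTH1 against vector, RPL16B (0.15) ran from -0.25 to 0.38 and RPL27B (0.34) from -0.04 to 0.66. RPS9A for CTH2 against CTH1 (-0.26) was 0.01 with array weights. The cause was not tested. The other values, 731 of named genes and 230 of summaries, kept their direction and call or moved by less than the spread between replicates.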
